A study of Mus musculus with 43 samples.

Results

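Integrins and laminins are the receptors and the matrix through which cells hold on to a basement membrane. The genes described here are those whose symbol names an integrin alpha subunit, an integrin beta subunit or a laminin chain, and that reached a level of at least 1 FPKM (fragments per kilobase of transcript, scaled to library size) in at least 2 of 43 mouse libraries. Of 38983 genes shared by the 5 deposited tables, 37 symbols matched and 31 passed: 14 integrin alpha subunits, 7 integrin beta subunits, 5 laminin alpha chains, 3 laminin beta chains and 2 laminin gamma chains. The 6 symbols that did not pass had highest levels of 0.564 FPKM (Itga2), 0.618 (Itgad), 0.785 (Itgae), 0.551 (Itgax), 0.862 (Itgb6) and 0.291 (Lamc3). Just inside the limit were Itga10, with a highest level of 1.57 FPKM, and Lamb3, which reached 5.72 FPKM in a Myc library but at most 1.18 in the reprogramming courses.

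The libraries follow fibroblasts on the way to induced pluripotency. Secondary mouse embryonic fibroblasts (MEF) carried a doxycycline-inducible cassette for Oct4, Klf4, Sox2 and Myc and were induced in serum with LIF at 5% oxygen. The Mbd3f/- system, with 1 floxed and 1 null allele of the NuRD subunit Mbd3, has 11 libraries (MEF, each of days 1 to 8, iPSC and an ES line). Gatad2a-/- cells, which lack another NuRD subunit, have 10 (the same without ES). Both are called depleted here. Of the wild-type (WT) systems, WT-1 has 7 libraries from MEF, days 2, 4, 6 and 8, iPSC and V6.5 ES, and WT-2, which is isogenic with the Gatad2a-/- cells, has 6 from the same stages but ES. Every stage of a system is 1 library, and nothing in the labels says that libraries came from separate cultures or animals, so p-values measure only the spread between these libraries. Medium and substrate changed along the course in all 4 systems: cells of days 3 to 8, iPSC and ES grew on irradiated human foreskin fibroblasts, inhibitors of MEK and GSK3 were added (on day 3.5 per one label, 48 hours after induction per another), and iPSC had at least 3 passages. Stage, medium and feeder layer therefore cannot be told apart. Another table holds 9 libraries from Mbd3f/- cells of an experiment on Myc. Those of day 4 expressed OSK (Oct4, Sox2 and Klf4) plus Myc, Myc alone or OSK alone. The others had siRNA against 3 Myc genes (siMyc, days 3 and 7), a Myc inhibitor (day 3) or si-Scramble (day 7 and MEF).

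Each integrin is a pair of 1 alpha and 1 beta subunit, and the alpha subunit largely sets which matrix protein the pair binds. Beta 1 pairs with most alpha subunits, alpha 5 beta 1 is the classic fibronectin receptor of fibroblasts, and alpha 6 pairs with beta 1 or beta 4 to bind laminin. A laminin is a trimer of an alpha, a beta and a gamma chain, named by its chain numbers. Laminins with alpha 1 or alpha 5 are found in early embryonic basement membranes and support pluripotent cells in culture, while alpha 2 and alpha 4 chains are typical of mesenchymal and vascular matrix.

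The starting and end libraries carried the markers of their labels: 8 of 8 fibroblast markers reached 1 FPKM in each MEF library and 6 of 6 pluripotency markers in each iPSC and ES library. On the days of induction the summed level of the 8 fibroblast markers was 25.6 to 784.2 FPKM in the depleted systems and 2611 to 8605 in the WT systems, and in WT-2 no pluripotency marker reached 1 FPKM on any day. Summed macrophage and leukocyte markers stood at 4576 to 9010 FPKM on the days of WT-2, far above WT-1 (19.6 to 59.3). Mbd3 was 36.3 to 96.5 FPKM in Mbd3f/- and 75.3 to 117.2 in WT-1, and Gatad2a was 8.59 to 14.7 FPKM in Gatad2a-/- and 9.17 to 38.5 in WT-2. These ranges overlap, and a gene-level value does not show a deleted part. Between 12266 and 13982 genes reached 1 FPKM in the other courses and 15485 to 16895 in Gatad2a-/-, where 1 gene took up to 25.0% of the summed FPKM.

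From MEF to iPSC most integrin subunits fell, and the laminin genes split into chains that rose and chains that fell. Of 30 members tested, 19 fell, 7 rose and 4 passed in neither direction, against 53.0% of all tested genes called (29.0% higher and 23.9% lower), and the median change was -1.53 for the members and 0.14 for all genes (log2). In the same contrast 8 of 8 fibroblast markers fell (median -6.22) and 6 of 6 pluripotency markers rose (median 8.24), and their part in the members' changes was not tested. The test was limma on log2(FPKM + 1) over 24 libraries, with the system as a block and Benjamini-Hochberg adjustment. Changes below are on that scale with limma's standard errors, which pool the spread over all libraries of the fit. Changes from MEF to iPSC average 4 systems, and those within a class or in the daily course average 2. Itga6, Itgb7, Lama1, Lama3, Lama5 and Lamc1 were among the 7 that rose. In bulk RNA, fewer cells of a type and less RNA per cell cannot be told apart.

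**Figure D1:**
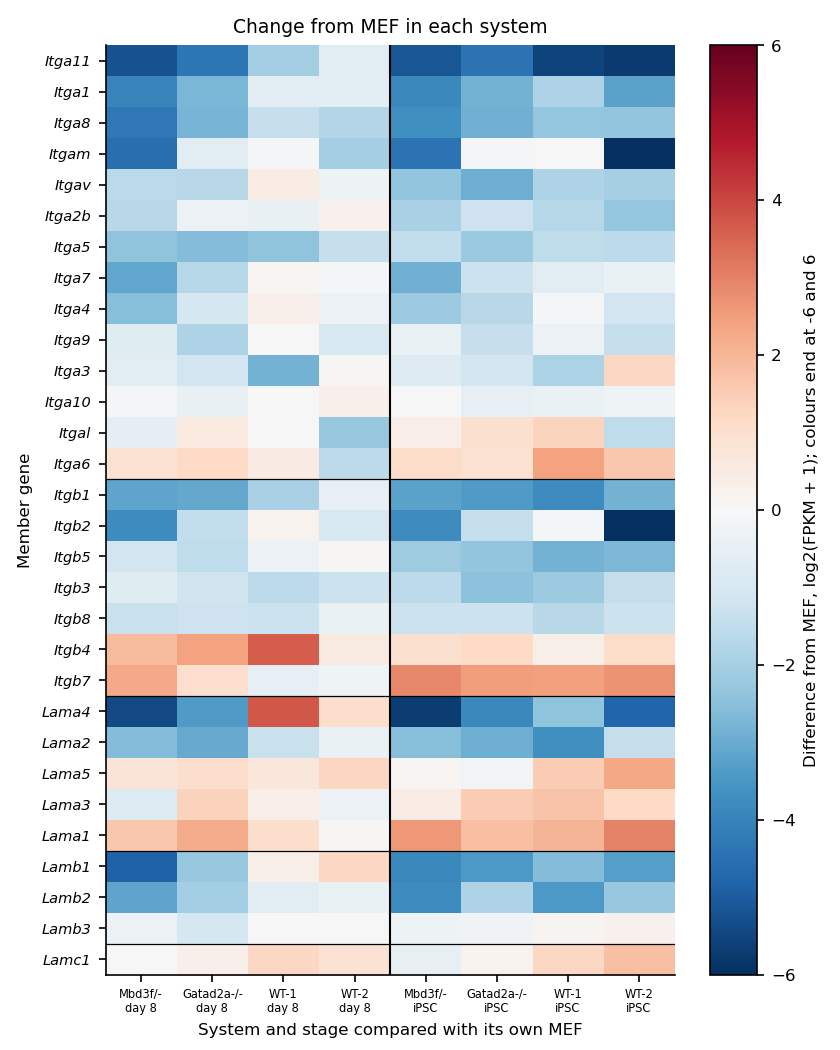
Heat map of the difference from the system's own MEF, log2(FPKM + 1), for 30 of the 31 members (rows, grouped by family) on day 8 (left 4 columns) and in iPSC (right 4 columns) of each system, 1 library per cell. Lama4 and Lamb1 are blue in both depleted systems and red in both WT systems on day 8, and blue in all 4 systems in iPSC.

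The collagen receptors were among the subunits that fell most. Itga11, the alpha subunit of a fibrillar collagen receptor of fibroblasts, lies on chromosome 9 (chr9:62677826-62783982, plus strand, GRCm38). Its MEF level was 36.4 FPKM in Mbd3f/-, 23.7 in Gatad2a-/-, 50.9 in WT-1 and 61.7 in WT-2. It was 0.0514, 0.156, 0.113 and 0.157 FPKM in the iPSC of those systems, in the same order. All MEF libraries lay above all iPSC libraries, and the change was -5.22 ± 0.42 (adjusted p = 4.72e-07). Itga1, which binds collagen and laminin, went from 16.2, 7.05, 2.84 and 8.91 FPKM in MEF to 0.170, 0.140, 0.0570 and 0.0775 in iPSC (-2.94 ± 0.29, adjusted p = 2.69e-06). The other collagen-binding subunit, Itga10, did not pass: it was 0.628, 1.57, 1.12 and 0.711 FPKM in MEF and 0.616, 0.831, 0.589 and 0.442 in iPSC.

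All 4 alpha subunits that recognise the RGD motif of fibronectin, vitronectin and related proteins fell. Itga5 (chr15:103344286-103366763, minus strand) was 78.6 FPKM in Mbd3f/- MEF and 25.5, 14.8, 9.86, 8.44, 9.48, 13.5, 15.4 and 14.1 on days 1 to 8, with 28.0 in iPSC and 17.2 in ES. The Gatad2a-/- course had 52.5 in MEF, then 16.8, 12.7, 7.45, 3.81, 7.05, 5.498, 4.85 and 7.72 on days 1 to 8, then 10.4 in iPSC. Both depleted courses thus had their lowest Itga5 library on day 4 and a higher level in iPSC. WT-1 went from 65.0 FPKM in MEF through 54.4, 15.1, 16.5 and 11.5 on days 2, 4, 6 and 8 to 22.2 in iPSC and 16.6 in ES. WT-2 went from 57.1 through 56.2, 32.8, 27.3 and 21.5 to 18.7 in iPSC. The change from MEF to iPSC was -1.69 ± 0.24 (adjusted p = 6.07e-05), lower in 4 of 4 systems. Itgav, the alpha v subunit of vitronectin receptors, was 37.0, 56.7, 33.5 and 18.0 FPKM in MEF and 6.36, 6.69, 8.67 and 3.75 in iPSC (-2.28 ± 0.23, adjusted p = 3.26e-06). Itga8, a nephronectin receptor subunit, fell by 2.81 on the log2 scale, from 4.37 to 24.1 FPKM in MEF to 0.0399 to 0.971 in iPSC. Itga2b, the platelet integrin subunit, was 4.70, 2.26, 3.69 and 7.43 FPKM in MEF and 0.398 to 0.708 in iPSC (-1.80 ± 0.34, adjusted p = 0.000600). It was also 4.38 to 8.93 FPKM on the days of WT-2, where the summed level of 5 megakaryocyte markers was 99.9 to 482.5 FPKM. That sum was 166.7 in WT-2 MEF, 164.0 in Mbd3f/- MEF, 23.4 in Gatad2a-/- MEF and 3.09 in WT-1 MEF, and at most 0.831 in iPSC and ES. Of the 5 (Pf4, Gp9, Gp1ba, Gp1bb and Ppbp), Gp9 was under 0.1 FPKM on every WT-2 day and in Mbd3f/- MEF. Gp1ba was under 0.1 in WT-2 MEF and on WT-2 days 2, 4 and 6. The part of these markers in the Itga2b change was not tested.

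Promoters of 4 members called between MEF and iPSC are given here. Each is shown as the 250 bases before the RefSeq start (GRCm38.p6), 5′ to 3′ on the gene's strand. They stand for the collagen receptor with the deepest fall (Itga11, chr9:62677605-62677854) and the fibronectin receptor (Itga5, chr15:103366792-103367041, minus strand). The others are the laminin beta chain with the larger day 8 difference between depleted and WT systems (Lamb1, chr12:31265043-31265292) and the subunit with the largest rise (Itgb7, chr15:102231936-102232185, minus strand). Capitals mark the GC box GGGCGG on either strand.
Itga11: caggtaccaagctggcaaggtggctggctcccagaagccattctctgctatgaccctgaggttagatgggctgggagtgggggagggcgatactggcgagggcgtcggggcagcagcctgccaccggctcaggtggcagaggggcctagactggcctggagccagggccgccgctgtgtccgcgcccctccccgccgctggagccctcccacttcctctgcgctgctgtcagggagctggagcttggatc
Itga5: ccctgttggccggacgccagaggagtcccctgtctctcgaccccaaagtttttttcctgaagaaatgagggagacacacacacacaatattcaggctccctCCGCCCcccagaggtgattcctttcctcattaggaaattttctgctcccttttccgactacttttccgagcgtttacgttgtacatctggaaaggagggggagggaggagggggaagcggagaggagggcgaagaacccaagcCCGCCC
Lamb1: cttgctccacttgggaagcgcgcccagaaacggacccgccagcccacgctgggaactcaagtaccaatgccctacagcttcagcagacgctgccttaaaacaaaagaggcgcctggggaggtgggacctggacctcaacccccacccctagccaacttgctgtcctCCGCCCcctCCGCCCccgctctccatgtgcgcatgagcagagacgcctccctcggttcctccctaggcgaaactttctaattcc
Itgb7: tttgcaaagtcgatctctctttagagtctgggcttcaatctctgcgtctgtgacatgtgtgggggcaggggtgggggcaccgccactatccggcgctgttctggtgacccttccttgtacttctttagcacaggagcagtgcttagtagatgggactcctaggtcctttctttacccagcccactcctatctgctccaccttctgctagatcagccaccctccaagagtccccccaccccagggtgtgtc
Itga5 and Lamb1 each hold 2 GC boxes on the reverse strand in this window, and Itga11 and Itgb7 hold 0. Over the full 300-base windows, which run 50 bases past the start, 11 of the 22 promoters found for 20 members held a GC box, against 35.7% of 32851 promoters. The octamer ATGCAAAT was in 0 of the 22 and in 1.74% of all promoters, and the E-box CACGTG was in 0 and in 7.15%. The AP-1 motif TGANTCA was in 2 of the 22 (7.81% of all) and the Sox motif CATTGTT in 1 (3.78% of all). Both strands were searched. None of these motifs contains another, and a match describes letters only.

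Among the laminin receptors, Itga6 rose while its fibronectin-binding counterpart Itga5 fell. Itga6 (chr2:71745616-71858416, plus strand), a surface marker of stem cells and basal epithelium, was 19.9 FPKM in Mbd3f/- MEF, then 51.5, 42.7, 35.0, 31.0, 34.4, 35.1, 37.2 and 38.6 on days 1 to 8, with 44.4 in iPSC and 38.7 in ES. Gatad2a-/- went from 31.3 through 65.3, 57.7, 49.0, 32.1, 62.4, 65.1, 73.3 and 73.8 to 59.0 in iPSC. In both depleted systems every library after MEF lay above the MEF library. WT-1 had 6.45 FPKM in MEF, 5.87, 7.68, 7.36 and 9.54 on days 2, 4, 6 and 8, then 38.1 in iPSC and 53.5 in ES. WT-2 had 10.9 in MEF, 6.10, 4.45, 3.92 and 3.05 on the same days, and 35.4 in iPSC. The WT days thus stayed under 10 FPKM and only the iPSC and ES libraries reached the levels of the depleted days. From MEF to iPSC Itga6 rose by 1.505 ± 0.265 (adjusted p = 0.000332), higher in 4 of 4 systems.

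The order of the pair changed with this. Itga6 lay above Itga5 in 10 of 11 Mbd3f/- libraries and 9 of 10 Gatad2a-/- libraries, that is in every library from day 1 onward. In WT-1 it did so only in iPSC and ES, and in WT-2 only in iPSC. The log2 ratio of Itga6 to Itga5 within a library was higher in iPSC than in MEF by 3.19 ± 0.54 (SD, n = 4 systems). An exact two-sided sign-flip test gave the smallest p that 4 systems allow, which is 0.25 when adjusted over 16 ratio tests.

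The other laminin-binding alpha subunits did not follow Itga6. Itga3 did not pass: it was 13.1, 15.3 and 14.3 FPKM in the MEF of Mbd3f/-, Gatad2a-/- and WT-1 but 1.70 in WT-2, and 7.23, 6.31, 3.14 and 5.31 in iPSC (-0.65 ± 0.46, adjusted p = 0.253). Without WT-2, the system with the opposite sign, its change was -1.43 (adjusted p = 0.0133). Itga7, the laminin receptor subunit of muscle, fell by 1.32 on the log2 scale (adjusted p = 0.000499), from 13.2, 3.87, 1.39 and 1.21 FPKM in MEF to 0.901, 1.02, 0.474 and 0.665 in iPSC. Summed skeletal muscle markers (Myod1, Myog, Des, Actc1 and Ckm) were 95.4 FPKM in Mbd3f/- MEF and 109.6 in Gatad2a-/- MEF. The sum was 0.813 in WT-1 MEF and 3.96 in WT-2 MEF. Of the 5 markers, 4 reached 1 FPKM in Mbd3f/- MEF and 2 in Gatad2a-/- MEF, with Ckm under 0.1 in both. Their part in the Itga7 change was not tested. Itga4 and Itga9, which form receptors for VCAM-1, fibronectin and tenascin, fell, with changes of -1.26 and -0.90. Itga4 ranged from 0.120 to 5.85 FPKM in MEF and from 0.0658 to 0.517 in iPSC, and its call was lost without WT-2 (adjusted p = 0.123). Itga9 was 3.07 to 8.997 FPKM in MEF and 2.16 to 4.53 in iPSC, groups that overlap, and its call was lost without Gatad2a-/- (adjusted p = 0.0587) or WT-2 (0.118).

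**Figure D2:**
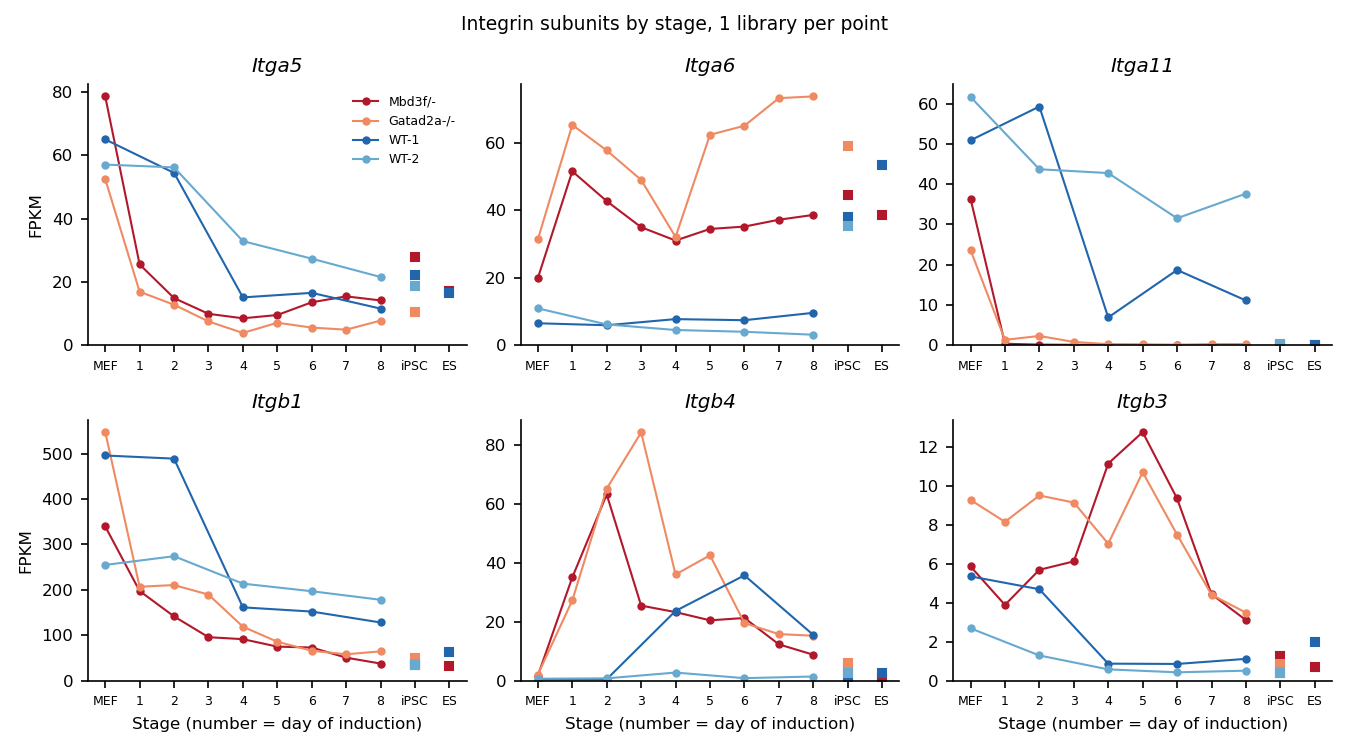
FPKM of 6 integrin subunits (one panel each) by stage in the 4 systems, 1 library per point, with circles for MEF and days and squares for iPSC and ES. Itga6 lies between 31.0 and 73.8 FPKM on the depleted days and under 10 on the WT days, and Itgb4 is high only on intermediate days.

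The shared subunit Itgb1 fell, with lower levels in 4 of 4 systems, but kept the largest share of the beta subunits in nearly all libraries. In Mbd3f/- it was 340.0 FPKM in MEF, then 197.5, 141.5, 95.7, 91.3, 74.8, 72.9, 50.5 and 37.5 on days 1 to 8, with 35.5 in iPSC and 32.7 in ES. Gatad2a-/- went from 548.4 through 206.8, 210.6, 189.5, 118.7, 85.6, 65.8, 58.0 and 64.4 to 50.6. The depleted courses were near the iPSC level by days 7 and 8. WT-1 had 496.2 in MEF, 489.2, 161.4, 152.2 and 128.1 on days 2, 4, 6 and 8, then 35.0 in iPSC and 63.7 in ES. WT-2 had 255.0, then 274.1, 213.7, 196.9 and 178.1, and 34.5 in iPSC. The WT day 8 libraries were thus still above every iPSC and ES library, and the change from MEF to iPSC was -3.32 ± 0.24 (adjusted p = 2.16e-07). Its share of the summed beta subunit FPKM was 61.6% to 83.3% in MEF and 51.4% to 62.3% in iPSC. The exception was Mbd3f/- day 8, where Itgb5 held 42.5% and Itgb1 39.6%.

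The 3 partners of alpha v also fell. Itgb5, a vitronectin receptor subunit, was 91.2, 94.7, 100.9 and 88.4 FPKM in MEF and 20.03, 17.7, 13.2 and 12.6 in iPSC (-2.51 ± 0.18, adjusted p = 1.48e-07). Itgb3, which marks platelets and osteoclasts, was 5.87, 9.30, 5.36 and 2.69 FPKM in MEF and 1.29, 0.841, 0.404 and 0.388 in iPSC (-1.92 ± 0.25, adjusted p = 2.92e-05). On the way it reached 12.8 FPKM in Mbd3f/- and 10.7 in Gatad2a-/-, both on day 5, whereas the highest WT day was day 2 (4.70 in WT-1 and 1.29 in WT-2). Itgb8, a subunit that activates latent TGF-beta, fell from 1.42 to 2.19 FPKM in MEF to at most 0.0369 in iPSC. Itgb4, the partner of alpha 6 in hemidesmosomes of epithelia, was not called between MEF and iPSC (0.91 ± 0.69, adjusted p = 0.290), although it was higher in 4 of 4 systems. Without WT-1 the change was 1.102 (adjusted p = 0.00742) and without WT-2 0.72 (0.0466).

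Itgb4 was instead highest in between. It was 1.66 FPKM in Mbd3f/- MEF, then 35.1, 63.3, 25.5, 23.3, 20.5, 21.3, 12.3 and 8.79 on days 1 to 8, with 4.22 in iPSC and 0.920 in ES. The Gatad2a-/- course had 2.06 in MEF, then 27.3, 65.3, 84.4, 36.1, 42.6, 19.6, 15.8 and 15.3, and 6.05 in iPSC. WT-1 had 0.346 in MEF, 0.444, 23.7, 35.8 and 15.5 on days 2, 4, 6 and 8, then 0.725 in iPSC and 2.66 in ES. WT-2 had 0.637 in MEF, 0.764, 2.73, 0.825 and 1.39 on those days, and 2.55 in iPSC. The peak thus came on day 2 or 3 in the depleted systems and on day 6 in WT-1, and no WT-2 day passed 2.73. Among 8 keratinocyte markers (Krt5, Krt14, Krt6a, Krtdap, Sfn, Dsg3, Trp63 and Ivl), 2 to 5 reached 1 FPKM on the depleted days. Trp63 was under 0.1 on every Mbd3f/- day and on days 2 to 5 of Gatad2a-/-. Dsg3 was under 0.1 on every Mbd3f/- day but day 2. Ivl was under 0.1 from day 3 on in both systems, apart from Gatad2a-/- day 4. The sum of the 8 was 48.7 to 260.5 FPKM in Mbd3f/- and 14.4 to 338.1 in Gatad2a-/- (9.72 and 47.1 in their MEF). In WT-1 the sum was 2.76 to 7.56 on the days, with Krt5, Krt14 and Krt6a under 0.1, while Itgb4 reached 35.8. WT-2 days had a sum of 1.52 to 2.67. The part of keratinocyte genes in the Itgb4 levels was not tested.

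Among the leukocyte subunits, the calls of Itgb2 and Itgam depended on which systems were fitted. Itgb2 and Itgam form the macrophage receptor Mac-1. Itgb2 was 13.6, 2.24, 0.0890 and 65.9 FPKM in the MEF of Mbd3f/-, Gatad2a-/-, WT-1 and WT-2, and 0.0610, 0.191, 0.0338 and 0.0337 in iPSC. Itgam was 23.0, 7.73, 0.0818 and 77.9 FPKM in MEF and 0.105, 6.93, 0.103 and 0.109 in iPSC. The macrophage and leukocyte marker sum followed the Itgb2 order in MEF: 1388, 290.7, 12.2 and 5781 FPKM, with 10 of 10 markers at 1 FPKM in all but WT-1 (3 of 10), and its part was not tested. Both genes fell on average (-2.83 ± 0.76, adjusted p = 0.00681, and -2.68 ± 0.87, adjusted p = 0.0190). Without WT-2 neither was called (adjusted p = 0.0534 and 0.354), and without Mbd3f/- neither was called (0.199 and 0.335). Gatad2a-/- kept Itgam at 4.00 to 9.65 FPKM on all days and in iPSC, while Itgb2 was at most 0.377 from day 3 on. Itgb7, the beta subunit of lymphocyte homing receptors, rose instead by 2.63 ± 0.20 (adjusted p = 2.44e-07). It was 0.182 to 0.445 FPKM in MEF, 7.94, 5.74, 6.90 and 7.17 in iPSC, and 8.55 and 6.33 in the ES of Mbd3f/- and WT-1. Itgal, the alpha subunit of LFA-1, was not called (0.28 ± 0.39): it was 1.39, 0.656, 0.0453 and 7.05 FPKM in MEF and 1.63 to 2.18 in iPSC.

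Among the laminin alpha chains, Lama4 and Lama2 fell from MEF to iPSC and Lama1, Lama3 and Lama5 rose. Lama4 (chr10:38965515-39110188, plus strand), the alpha chain of vascular and mesenchymal laminins, was 73.0 FPKM in Mbd3f/- MEF, then 53.4, 26.2, 13.1, 11.0, 4.57, 3.17, 1.39 and 0.720 on days 1 to 8, with 0.435 in iPSC and 0.624 in ES. Gatad2a-/- had 31.4 in MEF, 71.6, 90.1, 59.0, 19.9, 9.83, 7.28, 3.37 and 2.04 on days 1 to 8, then 1.21 in iPSC. Mbd3f/- thus went down from day 1, whereas Gatad2a-/- was above its MEF until day 3. WT-1 had 9.58 in MEF, 11.6, 73.7, 86.5 and 139.6 on days 2, 4, 6 and 8, then 0.977 in iPSC and 0.260 in ES. WT-2 had 29.0 in MEF, 31.0, 45.8, 52.8 and 62.1 on those days, and 0.0951 in iPSC. In both WT systems the highest library was day 8, and in iPSC all 4 systems were at or under 1.21 (-4.19 ± 0.49, adjusted p = 1.22e-05). Endothelial markers were summed over 6 genes (Pecam1, Cdh5, Kdr, Tek, Emcn and Vwf). The sum was 1.69 to 22.8 FPKM on WT-1 days, 1.55 to 2.50 on WT-2 days and 15.7 to 56.2 in iPSC and ES. On WT-1 days 4 and 6 all of these genes but Tek were under 0.1. Cdh5 and Emcn were under 0.1 in every iPSC and ES library. The part of endothelial genes in the Lama4 levels was not tested. Lama2, the muscle laminin chain, was 5.29, 8.17, 12.0 and 1.69 FPKM in MEF and 0.00786 to 0.199 in iPSC (-2.65 ± 0.32, adjusted p = 1.40e-05).

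Lama1 and Lama5 are the chains of embryonic basement membrane laminins. Lama1 was 0.934, 1.27, 0.129 and 0.118 FPKM in the MEF of Mbd3f/-, Gatad2a-/-, WT-1 and WT-2 and 10.9, 6.91, 3.59 and 7.76 in iPSC (2.35 ± 0.33, adjusted p = 5.08e-05). Depleted days ranged from 3.83 to 18.5, with the highest library on day 5 in Mbd3f/- (12.3) and on day 4 in Gatad2a-/- (18.5). WT days were at most 1.37 (WT-1 day 8) and 0.250 (WT-2). Markers of primitive and parietal endoderm, which is rich in Lama1, were summed over 6 genes (Gata4, Gata6, Sox17, Sox7, Foxa2 and Dab2). The sum was 2.82 to 55.3 FPKM on the depleted days and 140.5 and 77.8 in the depleted MEF. In both of these MEF libraries 3 of the 6 reached 1 FPKM, and Sox17 was under 0.1. The part of endoderm genes in the Lama1 levels was not tested. Lama5 (chr2:180176373-180225859, minus strand) was 24.4 FPKM in Mbd3f/- MEF, then 3.61, 7.51, 12.8, 30.3, 22.0, 34.2, 36.0 and 42.2 on days 1 to 8, with 26.3 in iPSC and 21.4 in ES. Gatad2a-/- had 16.2 in MEF, 3.37, 19.2, 30.8, 18.4, 25.7, 14.9, 24.2 and 35.0 on days 1 to 8, then 14.4 in iPSC. Both had their lowest Lama5 library on day 1, and on day 4 both were above MEF. WT-1 had 12.9 in MEF, 13.6, 10.3, 28.0 and 21.6 on the days, and 39.5 in iPSC and 20.8 in ES. WT-2 had 4.10 in MEF, 4.42, 6.51, 14.3 and 11.3 on the days, and 24.9 in iPSC. The rise of Lama5 over the 4 systems (0.96 ± 0.30, adjusted p = 0.0164) came from the WT systems, with differences of 1.54 and 2.34, against 0.11 in Mbd3f/- and -0.15 in Gatad2a-/-. Its call was lost without WT-1 (adjusted p = 0.0582) or WT-2 (0.208). Lama3, the alpha chain of epithelial laminin-332, was 0.0333 to 1.32 FPKM in MEF and 2.12 to 2.96 in iPSC (1.21 ± 0.30, adjusted p = 0.00388).

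**Figure D3:**
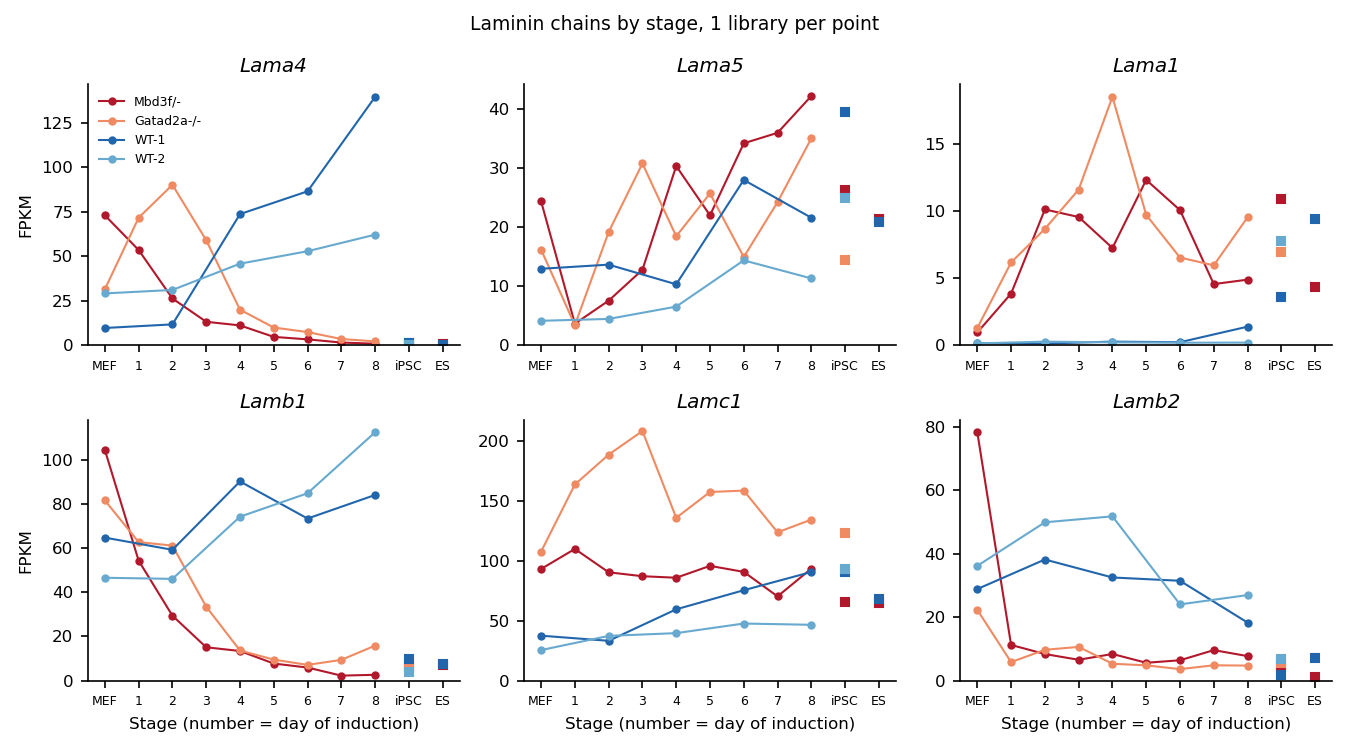
FPKM of 6 laminin chains (one panel each) by stage in the 4 systems, 1 library per point, with circles for MEF and days and squares for iPSC and ES. Lama4 reaches 139.6 FPKM in WT-1 and 62.1 in WT-2 on day 8, where the depleted systems stand at 0.720 and 2.04.

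As a share of the summed FPKM of the 5 alpha chains, Lama4 went from 69.6% in Mbd3f/- MEF to 86.0% on day 1, 1.496% on day 8 and 1.09% in iPSC. In Gatad2a-/- it went from 54.7% to 84.4%, 4.15% and 4.73% at those stages. WT-1 had 27.6% in MEF, 83.5% on day 8 and 2.10% in iPSC, and WT-2 had 82.2%, 83.1% and 0.273%. Lama5 was the leading chain in every iPSC library, with 66.1%, 56.1%, 85.1% and 71.4%. It lay above Lama4 from day 4 in Mbd3f/- and from day 5 in Gatad2a-/-, in WT-2 only in iPSC, and in WT-1 in MEF, day 2, iPSC and ES. Lama1 lay above Lama2 in every depleted library from day 1 and, in WT-1 and WT-2, only in iPSC and ES. From MEF to iPSC the log2 ratio of Lama5 to Lama4 was higher by 5.15 ± 1.61 and that of Lama1 to Lama2 by 5.00 ± 0.57 (SD, n = 4 systems). Both were higher in 4 of 4 systems, with the smallest p the exact test allows (adjusted p = 0.25).

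**Figure D4:**
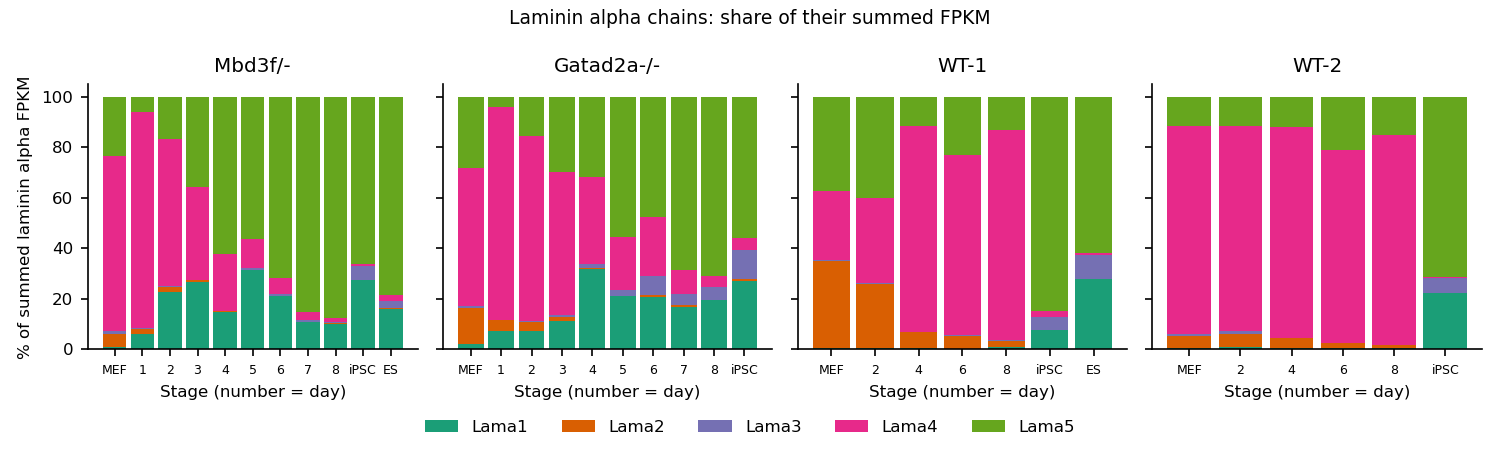
Stacked bars of the share of each laminin alpha chain in their summed FPKM (%, vertical axis) by stage in the 4 systems, 1 library per bar. Lama4 holds over 80% on day 8 in both WT systems and under 5% in both depleted systems, and Lama5 leads in every iPSC bar.

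The laminin beta chains Lamb1 and Lamb2 both fell from MEF to iPSC. Lamb1 (chr12:31265234-31329644, plus strand) was 104.5 FPKM in Mbd3f/- MEF, then 54.4, 29.4, 15.1, 13.4, 7.73, 5.91, 2.25 and 2.62 on days 1 to 8, with 6.14 in iPSC and 7.26 in ES. Gatad2a-/- had 81.7 in MEF, 62.8, 61.2, 33.5, 13.6, 9.51, 7.12, 9.37 and 15.9 on days 1 to 8, then 6.60 in iPSC. Both depleted courses were under 10 FPKM on days 5 and 6. WT-1 had 64.8 in MEF, 59.3, 90.3, 73.5 and 84.1 on the days, and 9.80 in iPSC and 7.62 in ES. WT-2 had 46.6 in MEF, 46.1, 74.3, 84.9 and 112.6 on the days, and 3.76 in iPSC. On day 8 both WT libraries were above their MEF, and the change from MEF to iPSC was -3.31 ± 0.35 (adjusted p = 5.14e-06). Lamb2 was 78.3, 22.3, 28.9 and 36.2 FPKM in MEF and 4.86, 5.47, 1.75 and 6.73 in iPSC (-2.83 ± 0.31, adjusted p = 6.20e-06). Lamb1 lay above Lamb2 in all libraries but days 6 to 8 of Mbd3f/- and day 2 and iPSC of WT-2. Lamb3, the epithelial beta chain, was at most 1.18 FPKM in any course library and was not tested.

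Lamc1, the common gamma chain, rose on average over the 4 systems but fell in Mbd3f/-. It was 93.1, 107.5, 37.4 and 25.4 FPKM in MEF and 65.1, 122.8, 90.8 and 92.7 in iPSC. Its average rise (0.69 ± 0.19, adjusted p = 0.00739) joined differences of -0.51 in Mbd3f/-, 0.19 in Gatad2a-/-, 1.26 in WT-1 and 1.83 in WT-2. The call was lost after quantile normalization (0.36, adjusted p = 0.109) and without Gatad2a-/- (0.117) or WT-2 (0.0667).

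By day 8 more members had passed the test in the depleted systems than in the WT systems. In the depleted systems 16 of 30 members fell, 3 rose (Itga6 by 1.07 ± 0.38, Itgb7 by 1.65 ± 0.28 and Lama1 by 1.91 ± 0.46) and 11 passed in neither direction, against 34.3% of all genes called (19.0% higher and 15.3% lower). In WT 1 member fell, Itga5 (-1.88 ± 0.34, adjusted p = 0.0245), and 29 passed in neither direction, against 1.16% of all genes (0.438% higher and 0.719% lower), and 9 of the 30 had an unadjusted p under 0.05. The Itga5 call was lost without Mbd3f/-, Gatad2a-/- or WT-1. The test of the difference itself called 11 of 30 members, 10 lower and 1 higher in depleted cells, against 16.1% of all genes (8.39% higher and 7.73% lower). The median difference was -0.88 for the members and 0.23 for all genes. The 8 fibroblast markers were all lower in that test (median -5.59) and the 6 pluripotency markers all higher (median 6.005), and their part in the members' differences was not tested.

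The largest differences were in laminin chains. Lama4 changed from MEF to day 8 by -5.43 in Mbd3f/- and -3.41 in Gatad2a-/- but by 3.73 in WT-1 and 1.07 in WT-2 (difference -6.82 ± 0.97, adjusted p = 0.000654). Lamb1 changed by -4.86 and -2.29 against 0.37 and 1.25 (-4.39 ± 0.70, adjusted p = 0.00135). The signs were thus opposite in the 2 classes, although the WT values were not called on their own (2.40 ± 0.69, adjusted p = 0.114, for Lama4 and 0.81 ± 0.50, adjusted p = 0.502, for Lamb1). Lamb2 (-2.08 ± 0.61, adjusted p = 0.0352) and Lama2 (-1.98 ± 0.63, adjusted p = 0.0493) had negative values in all 4 systems, larger in the depleted ones. Among integrins the differences were -3.36 ± 0.84 for Itga11, -2.71 ± 0.58 for Itga1, -2.42 ± 0.49 for Itga7, -1.88 ± 0.49 for Itgb1, -1.71 ± 0.46 for Itgav and -1.19 ± 0.35 for Itgb5, with adjusted p from 0.00545 to 0.0357. Itgb7 was the member with a higher change in depleted cells (2.02 ± 0.39, adjusted p = 0.00422): on day 8 it was 4.89 and 1.39 FPKM in the depleted systems and 0.0311 and 0.0605 in WT. Itga5 fell in both classes, and its difference was not called (-0.62 ± 0.48, adjusted p = 0.404). For Itga6 the difference was 1.59 ± 0.53 (adjusted p = 0.0580), with changes of 0.93, 1.21, 0.50 and -1.55. Without WT-1 it was 2.62 (adjusted p = 0.0115).

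These day 8 differences rest on 2 systems a class. The count of 11 was 5 without Mbd3f/-, 7 without Gatad2a-/-, 7 without WT-1 and 2 without WT-2, and 1 when only the stages compared were fitted. Lama4 was called in each of these fits. Lamb1 was not called without WT-2 (-3.95, adjusted p = 0.0525) or with only the stages compared (adjusted p = 0.0661). In each fit without a system, the remaining system of that class is assumed to vary like the others.

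The daily libraries of the 2 depleted systems place most changes in the first days. On day 1, 11 of 29 members tested had fallen and 3 had risen, against 23.1% of all genes called (14.1% higher and 8.99% lower). On day 3, 15 had fallen and 3 had risen, against 30.5% of all genes (16.9% higher and 13.6% lower). On day 5, 16 had fallen and 3 had risen, against 36.3% (20.5% higher and 15.9% lower). The 3 that rose were Itgb4, Itga6 and Lama1 on each of these days. Itgb4 was higher than in MEF by 3.48 ± 0.39 on day 1, 4.06 ± 0.39 on day 3 and 3.42 ± 0.39 on day 5. Itga6 was higher by 1.18, 0.71 and 0.87 and Lama1 by 1.49, 2.46 and 2.51 on those days. Itga11, Itga1 and Itga8 led the falls on day 1, at -4.13, -2.96 and -2.90. Lama5 had fallen on day 1 (-2.22 ± 0.52, adjusted p = 0.00932) but not on day 3 (0.00 ± 0.52) or day 5 (0.25 ± 0.52). Lamb1 passed on day 3 (-1.99 ± 0.52) and Lama4 only on day 5 (-2.66 ± 0.55, adjusted p = 0.00240) of the 3 days tested.

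From day 8 to iPSC, members were called in the WT systems only; the difference between the classes in this step was not tested. In the depleted systems 0 of 30 members were called by limma, against 0.566% of all genes (0.246% higher and 0.320% lower), and 5 had an unadjusted p under 0.05 (lowest adjusted p = 0.189). Without Mbd3f/- the count was 2. In WT 10 members fell and 5 rose, against 35.3% of all genes (19.6% higher and 15.7% lower). The changes were -6.0 for Lama4, -4.25 for Itga11, -3.78 for Lamb1, -2.63 for Itgb5 and -2.33 for Lamb2. They were -2.09 for Itgb1, -1.995 for Itgav, -1.89 for Itga1, -1.89 for Itga2b and -1.70 for Lama2. Among the 5 that rose were Itgb7 (2.94 ± 0.28), Itga6 (2.53 ± 0.38), Lama1 (1.93 ± 0.46) and Lama3 (1.43 ± 0.42).

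ES and iPSC could be compared in Mbd3f/- and WT-1 only. Limma called 0 of 30 members, and 0 had an unadjusted p under 0.05, against 0% of all genes called. Of 3 members chosen after their values were seen, Itga5 was lower in ES in both systems, and Lama1 and Itgb5 differed in opposite directions. Itga5 was 28.0 in iPSC and 17.2 in ES of Mbd3f/-, and 22.2 and 16.6 in WT-1. Lama1 was 10.9 in iPSC and 4.36 in ES of Mbd3f/- but 3.59 and 9.39 in WT-1, and Itgb5 was 20.03 and 8.86 but 13.2 and 19.5.

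Most intracellular partners and ligands of these receptors that were tested also fell from MEF to iPSC. Of 27 adaptors and membrane partners tested (28 listed), 18 fell and 2 rose from MEF to iPSC, and 7 passed in neither direction, with a median of -1.08, against 53.0% of all genes called (29.0% higher and 23.9% lower) and a median of 0.14. Cav1, the caveolar scaffold, Parva, which links integrins to actin, and Zyx, a focal adhesion protein, fell, with changes of -5.07, -4.86 and -4.45. Parvb and the tetraspanin Cd9 rose by 2.04 and 1.26. Of 18 ligands and basement membrane genes, 11 fell, 1 rose and 6 passed in neither direction, with a median of -1.74. Thbs1 (thrombospondin 1), Tnc (tenascin C) and Fbn1 (fibrillin 1) fell, with changes of -7.20, -5.61 and -5.17, and Bcam, a receptor for laminin alpha 5, rose by 3.29. In the day 8 difference 5 of 27 adaptors and 7 of 18 ligands were lower and 1 adaptor was higher in depleted cells, against 7.73% of all genes lower and 8.39% higher.

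The Myc table holds 1 library per condition, apart from 2 of si-Scramble MEF, and its differences were not tested. In 3 of the libraries, of day 4, Mbd3f/- cells expressed the factors OSK (Oct4, Sox2 and Klf4) and Myc together, Myc alone or OSK alone. The others used secondary MEF with inducible OSK, treated with siRNA against the 3 Myc genes, a Myc inhibitor or si-Scramble control siRNA. The 2 si-Scramble MEF libraries differed by a median of 0.126 over the members and by at most 0.571 (Lama5). Of the 31 members, 27 reached 1 FPKM in at least 2 of these libraries, and a log2 difference of at least 1 on log2(FPKM + 1) is counted below.

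OSK plus Myc had 1 of 27 members higher and 10 lower than OSK alone on day 4, where 26.8% of all genes passed that limit (11.1% higher and 15.7% lower). Lama4 was 20.8 against 147.2 FPKM, Itga6 27.1 against 115.6, Lamc1 63.5 against 154.1 and Itgav 31.6 against 74.7. Itgam was 0.774 against 22.8 FPKM, while Itgb2 was 0.202 and 0.0609. The member that was higher was Lamb1, 84.6 against 34.4. Itgb4 was 84.3 and 85.7. Against Myc alone, OSK plus Myc had 7 members higher and 0 lower, against 12.8% of all genes (8.82% higher and 3.98% lower). Itgb4 was 84.3 against 1.08 FPKM, Lama1 6.01 against 0.0353, Itgb3 3.72 against 0.228 and Itga6 27.1 against 7.76. The library with Myc alone thus had Itgb4 and Lama1 at or below the si-Scramble MEF levels of 2.52 to 2.93 and 0.346 to 0.426.

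In the siRNA series, siMyc and si-Scramble on day 7 differed by 1 or more in 0 of 27 members, against 7.30% of all genes (3.12% higher and 4.17% lower). Itgb4 was 105.2 and 74.9 FPKM, Itga6 45.0 and 34.1, and Lama4 49.2 and 70.2. Compared with the si-Scramble MEF mean, the day 7 control had 5 members higher (among them Itgb4, Lama1, Lamb3 and Itga6) and 3 lower (Itga11, Itga8 and Itga9), against 12.7% of all genes (7.22% higher and 5.43% lower). Lamb3, the epithelial laminin beta chain, was 4.29 FPKM in that control, 5.72 with siMyc on day 7, 4.90 with siMyc on day 3 and 0.146 and 0.215 in the MEF. The keratinocyte marker sum was 261.0, 263.1, 98.8, 8.35 and 9.41 FPKM in the same libraries, and its part was not tested.

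There is no si-Scramble library of day 3, so the day 3 libraries are set against MEF. Days of OSK induction and Myc treatment cannot be told apart in these comparisons. On day 3, siMyc cells had 7 members higher and 2 lower than si-Scramble MEF, against 12.9% of all genes (4.57% higher and 8.35% lower). Itgb1 was 875.3 against 383.6 and 400.9 FPKM and Itga5 159.8 against 54.2 and 56.2, the highest levels of both genes in any of the 43 libraries. Itgb4 was 44.5 against 2.93 and 2.52. With the Myc inhibitor on day 3, 8 members were higher and 0 lower, against 20.4% of all genes (10.1% higher and 10.3% lower). They were Itgb4, Lama5, Itga8, Lamb2, Itga1, Lama2, Itgb3 and Itga11, of which Lama5 was 81.8 against 10.9 and 16.6 FPKM and Itga11 37.8 against 15.4 and 16.5. Itgb4 was 39.8 FPKM in that library, with a keratinocyte marker sum of 3.59. Itga6, at 14.6, was not above the MEF libraries (16.0 and 17.0).

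**Figure D5:**
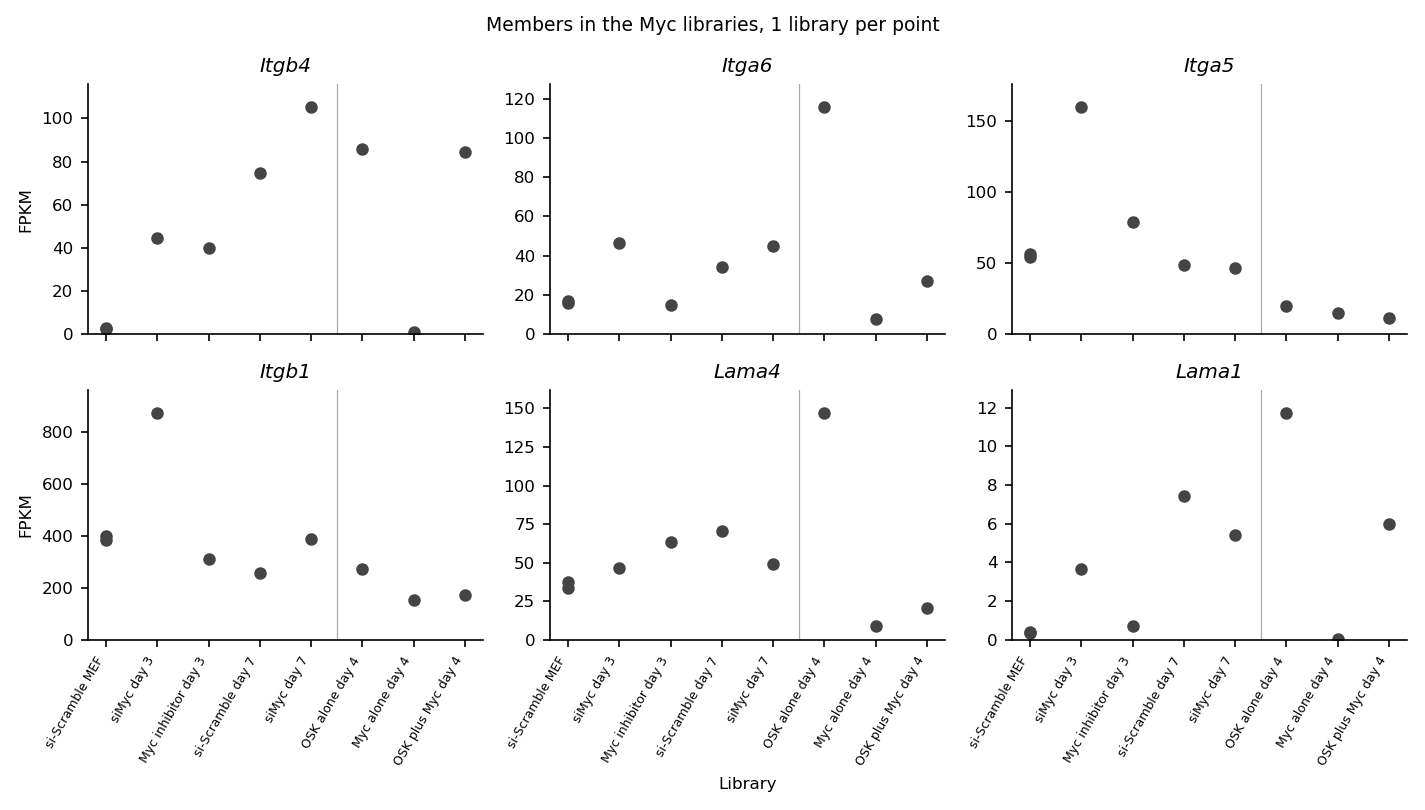
FPKM of 6 members (one panel each) in the 9 Myc libraries, 1 library per point; the grey line separates the siRNA and inhibitor libraries (left) from the day 4 factor combinations (right). Itgb4 lies between 39.8 and 105.2 FPKM wherever OSK was induced and at or below 2.93 in MEF and with Myc alone.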

How the data were processed

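Poly(A) RNA from 43 mouse samples was sequenced. The authors deposited FPKM per gene in 5 tables, made with CASAVA 1.8.2, TopHat2 2.0.10 and Cufflinks 2.2.1 on mm10, per the submitters' processing notes; the annotation release was not given in the sources used here. Tables were normalized separately, depth is unknown, and the kit does not mark strand, so antisense reads cannot be told apart. All 37 mitochondrial genes are listed at 0 in every library, so a 0 can be a failed estimate.

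Tests used limma 3.58.1 (R 4.3.3; trend and robust options) on log2(FPKM + 1), over all genes with at least 1 FPKM in 2 libraries: 20305 genes and 24 libraries for the 6 stages the 4 systems share, 20197 genes and 20 libraries for the daily course, 20410 genes and 26 libraries with ES. System was a block, and calls required a Benjamini-Hochberg adjusted p under 0.05. Other pseudocounts, filters, quantile normalization, no block, fewer stages and leaving out each system were tried. Only the MEF to iPSC contrast was tried on simulated data, with independent noise of the same size for every gene. The day 8 and daily contrasts were not simulated. The members that results turn on are given by library; 1 member is counted but its values are not reported here. Members and gene lists were chosen with earlier results of these data known.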

Additional observations from a re-analysis of the deposited data

Results flagged for a closer look

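The change of Itga5 from MEF to iPSC in Gatad2a-/- was -2.23 on the log2 scale, apart from the other 3 systems (-1.56 to -1.46). The gap to the nearest system was 0.872 of the whole range, above the 95% critical value of Dixon's test for 4 samples; it was 1 of 26 members examined, and chance marks about 1 in 20.

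The change from MEF to day 8 differed between the depleted and the WT systems for 11 of 30 members by limma's test. Of all genes, 16.1% were called (8.39% higher and 7.73% lower), and the count of members fell in several other fits, as given below. The differences, depleted minus WT, were -6.82 for Lama4, -4.39 for Lamb1, -3.36 for Itga11, -2.71 for Itga1, -2.42 for Itga7, -2.08 for Lamb2, -1.98 for Lama2, -1.88 for Itgb1, -1.71 for Itgav, -1.19 for Itgb5 and 2.02 for Itgb7.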

How the results depend on the processing

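Of the named members' values recomputed under the alternatives, 443 kept their side of the threshold, 66 lost the call and 9 gained it. Among values called in the main or the alternative fit, 0 changed sign. A sign change of a value called in neither fit was not counted. The single WT call between MEF and day 8 became 2 with a pseudocount of 0.1, 0 without the system block and 0 with only the stages compared, and 0 to 3 leaving out a system. The 11 calls of the day 8 difference became 4 without the block and 1 with only the stages compared, and 2 to 7 leaving out a system; without the filter Itgb5, Lama2 and Lamb2 were not called. The 14 calls of day 1 became 7 without the block. From day 8 to iPSC in the depleted systems the 0 calls became 0 to 2. The Itgb5 to Itgb3 ratio, -0.59, was 0.27 with a pseudocount of 0.1, so its direction depends on that choice. With that pseudocount 12 members, not 7, passed the limit between OSK plus Myc and Myc alone, and 1, not 0, between siMyc and si-Scramble on day 7. The cause of these shifts was not tested. Leaving out a system gave 23 to 25 calls between MEF and iPSC, 14 to 20 from MEF to day 8 in the depleted systems and 10 to 16 from day 8 to iPSC in WT. Over all genes the day 8 difference had 791 to 4969 calls against 3273, MEF to day 8 in WT 0 to 322 against 235, and day 8 to iPSC in the depleted systems 0 to 2715 against 115. Quantile normalization moved the median of all genes from 0.23 to 0.10 for MEF to day 8 in the depleted systems. Leaving out a system in the daily course, and fitting ES against iPSC with only those stages and the same class, stage and system terms, left no residual degrees of freedom; a simpler model was not run. No paired analysis was possible by replicate number because the labels give such numbers only to the 2 si-Scramble MEF libraries; the block in the tests was the system.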
